A study of Saccharomyces cerevisiae with 9 samples.

Results

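THI6 and THI80 encode late enzymes of thiamine metabolism in yeast, and their RNA levels were compared between wine yeast grown without and with grape proanthocyanidins (PAs). They were the rows numbered gene5884 (THI6) and gene5565 (THI80) of the deposited tables, 2 of 5859 genes. Both are thiamine genes that the study lists, and they had been chosen by their values in the comparison of 0.1 g/L PAs with the control, so their difference in that comparison is a description and not a finding. The tables carry running numbers and no gene names. The assignment of these 2 numbers to THI6 and THI80 was taken from an earlier match of the tables with the gene list of the study. It was not repeated here, and every value below holds for the 2 numbered rows.

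The strain was AWRI R2, a commercial wine yeast of Saccharomyces cerevisiae, fermented in a model synthetic medium that imitates grape juice. PAs are the condensed tannins of grapes. Group A received 0 g/L PAs, group B 0.1 g/L and group C 1.0 g/L. In all groups the cells were kept at 28 °C without shaking and collected at 72 h, in stationary phase, and the PAs were added in ethanol, which the control also received. The medium itself contained thiamine in all groups. Each group had 3 libraries, which the study describes as biological replicates, so 9 libraries lie behind the tables. The values used were means over 6 libraries of 2 groups each. No value of a single library was used, and the authors' standard errors and p-values were left aside. The spread between replicates is therefore not known for any value below, and no difference was tested.

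Thiamine, vitamin B1, is made in yeast from a pyrimidine part and a thiazole part. Thi6 is a bifunctional enzyme: its hydroxyethylthiazole kinase activity phosphorylates the thiazole part, and its thiamine phosphate synthase activity joins the pyrimidine and thiazole parts into thiamine phosphate. Thiamine phosphate is then dephosphorylated to thiamine, and Thi80, thiamine pyrophosphokinase, converts thiamine into thiamine pyrophosphate. This is the active cofactor of enzymes such as pyruvate decarboxylase, which is needed for alcoholic fermentation, and transketolase. Thi6 is used only for synthesis from the precursors, whereas Thi80 also acts on thiamine taken up from the medium. In S. cerevisiae the genes of thiamine synthesis are known to be repressed by external thiamine.

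In the S. cerevisiae S288C reference, build R64, THI6 (YPL214C) lies on the minus strand of chromosome XVI, from 148569 to 150191. THI80 (YOR143C) lies on the minus strand of chromosome XV, from 601383 to 602342. Each gene is annotated as 1 exon that is coding throughout, with a coding length of 1623 bp for THI6 and 960 bp for THI80. Neither gene overlaps another annotated gene (0 overlaps each). The closest gene to THI6 is CBP3, which lies on the other strand 145 bp from its 3′ end. The next is LEA1, also on the other strand, at 422 bp. The closest to THI80 is ELG1, on the same strand at 374 bp. The build used by the authors is not given in the sources used here, and the tables hold no coordinates.

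The stretches before the start codons are shown because both genes had a similar ratio at the lower dose and different ratios at the higher dose. Each sequence below is the RefSeq R64 sequence from 300 to 51 bases before the start codon, read 5′ to 3′ on the strand of the gene. It is taken from chrXVI:150242-150491 for THI6 and chrXV:602393-602642 for THI80. Capitals mark TATAAA, the core of the TATA box, and GATAAG, the core read by GATA factors, on either strand, so that a match on the opposite strand appears as TTTATA or CTTATC.
THI6: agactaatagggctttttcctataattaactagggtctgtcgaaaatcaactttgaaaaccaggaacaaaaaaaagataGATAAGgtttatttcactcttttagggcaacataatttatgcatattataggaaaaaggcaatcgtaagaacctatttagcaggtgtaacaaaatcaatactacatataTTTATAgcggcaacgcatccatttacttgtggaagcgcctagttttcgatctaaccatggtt
THI80: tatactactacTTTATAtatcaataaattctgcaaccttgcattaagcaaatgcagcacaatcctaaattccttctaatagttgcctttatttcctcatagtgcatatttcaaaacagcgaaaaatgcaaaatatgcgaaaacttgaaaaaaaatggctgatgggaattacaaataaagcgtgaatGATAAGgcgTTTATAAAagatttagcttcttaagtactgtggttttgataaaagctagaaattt

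Both stretches held GATAAG on the strand of the gene, beginning 221 bases before the start codon in THI6 and 114 bases before it in THI80. TATAAA was found on the opposite strand from base 112 to base 107 before the THI6 start codon. THI80 had it from base 103 to base 98 on its own strand, overlapping a match on the opposite strand, and again on the opposite strand from base 289 to base 284. These motifs are common. Of 6001 stretches of the same length before annotated coding genes, 43.1% held TATAAA, 12% held GATAAG and 5.48% held both, counting either strand. The letters CACGTG (in 3.27% of all stretches) and TGACTC (in 6.83%) were not in either window. The matches describe the reference sequence of S288C and were not set against binding data. The sequence of AWRI R2 was not read and may differ.

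The deposited pair means were read first, since they need no further step. For THI6, the authors' mean normalized count was 13737 over groups A and B, 9983 over groups A and C, and 15889 over groups B and C. For THI80, it was 3671 over groups A and B, 5073 over A and C, and 6665 over B and C. For both genes the table without the control had the highest mean. The lowest mean was that of A and C for THI6, the table without group B, and that of A and B for THI80, the table without group C. If the tables are on a common scale, the group missing from the lowest mean has the highest level. The pair means thus put THI6 in the order A, C, B and THI80 in the order A, B, C, from low to high.

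**Figure D1:**
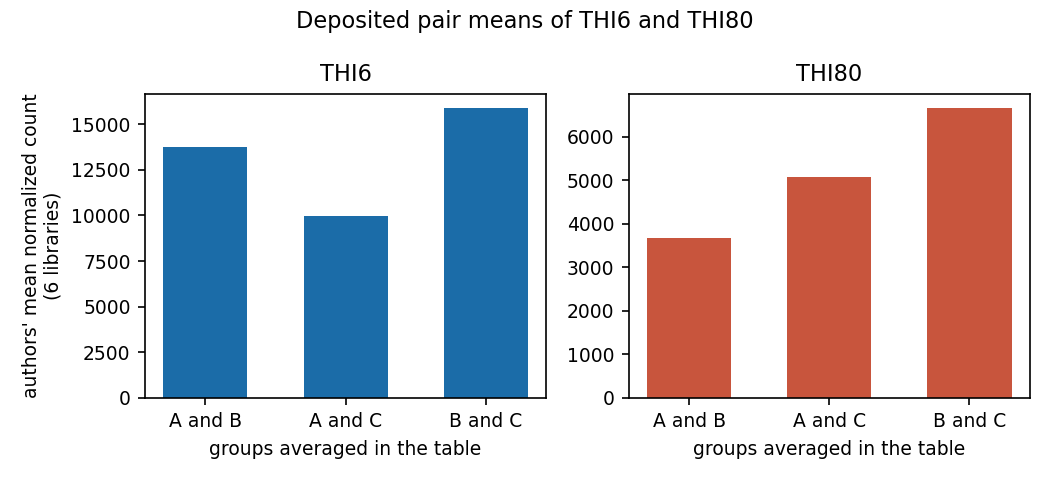
Authors' mean normalized counts of THI6 (left) and THI80 (right) over the 6 libraries of each pair of groups, 1 bar per deposited table and no error bar, because no value of a single library was used. The shortest bar is A and C for THI6 (9983) and A and B for THI80 (3671).

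The group means were then estimated from the pair means. A pair mean is the average of 2 group means, so 3 pair means give 3 group means once the separately normalized tables are on 1 scale. The scale was set so that the median gene had the same level in B as in A and in C as in A, which multiplied the table of A and C by 1.00 and that of B and C by 0.989. Of 5859 genes, 5664 had a pair mean of at least 10 in every table and formed the background. Of these, 0 came out with an estimated group mean at or below 0. A level in the following is such an estimated group mean in normalized counts, set across the 3 tables. It is relative to the median gene and not to the amount of RNA in the culture. Less RNA of most other genes and more RNA of the gene can therefore not be told apart.

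The level of THI6 was 8039 normalized counts in group A, 19434 in group B and 11987 in group C. It was highest at 0.1 g/L PAs and lay between the control and the lower dose at 1.0 g/L. The level of THI80 was 2169 normalized counts in group A, 5174 in group B and 8007 in group C. It was higher at each higher dose. Relative to the control, the levels in group B were 2.42-fold for THI6 and 2.38-fold for THI80, the comparison on which the genes were chosen. In group C they were 1.49-fold for THI6 and 3.69-fold for THI80. From group B to group C, the THI6 level was 1.62-fold lower, whereas the THI80 level was 1.55-fold higher.

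At 0.1 g/L PAs the level of THI6 exceeded the control by 11395 normalized counts, and at 1.0 g/L by 3948, which is 34.6% of the difference at the lower dose. The corresponding differences for THI80 were 3004 and 5838 normalized counts, so that the difference at 1.0 g/L was 194% of that at 0.1 g/L. A 10-fold higher concentration of PAs was thus accompanied by a smaller difference from the control for the synthase gene and a larger one for the pyrophosphokinase gene. How these differences compare with the spread between replicates is not known here.

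On the log2 scale, the ratio of group B to group A was 1.27 for THI6 and 1.25 for THI80. Past a 2-fold higher level in B than in A, the fold threshold of the study, lay 2.79% of the 5664 genes and both members. The rule used this comparison, so this count says nothing about them. In the opposite direction, 5.69% of genes were at least 2-fold lower in B. Higher ratios than that of THI6 were found for 92 genes, and higher ratios than that of THI80 for 96 genes, so the genes stood close to each other in the upper tail. The quartiles of all genes were log2 ratios of -0.31 and 0.25.

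The log2 ratio of group C to group A was 0.58 for THI6 and 1.88 for THI80. A level at least 2-fold higher in C than in A was found for 18.3% of all genes, and of the 2 members for THI80 only. A further 12.3% of genes were at least 2-fold lower in C. The ratio of THI6 lay between the quartiles of all genes, at -0.60 and 0.75, and 1711 genes had a higher ratio. The ratio of THI80 lay above that of 95.7% of genes, and 242 genes had a higher one. The comparison shares its control libraries with that of B and A.

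The log2 ratio of group C to group B was -0.70 for THI6 and 0.63 for THI80. Neither member passed a 2-fold difference between the PAs doses, which 18.9% of genes passed as higher in C and 10.3% as lower in C. The quartiles of all genes were -0.54 and 0.77, with a median of 0.06. The THI6 ratio was below the lower quartile, with 1079 genes lower, and the THI80 ratio was between the quartiles, with 1657 genes higher. The 2 genes therefore differed in direction between the doses, each by less than 2-fold. The comparison shares its group B libraries with that of B and A, on which both genes were chosen.

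**Figure D2:**
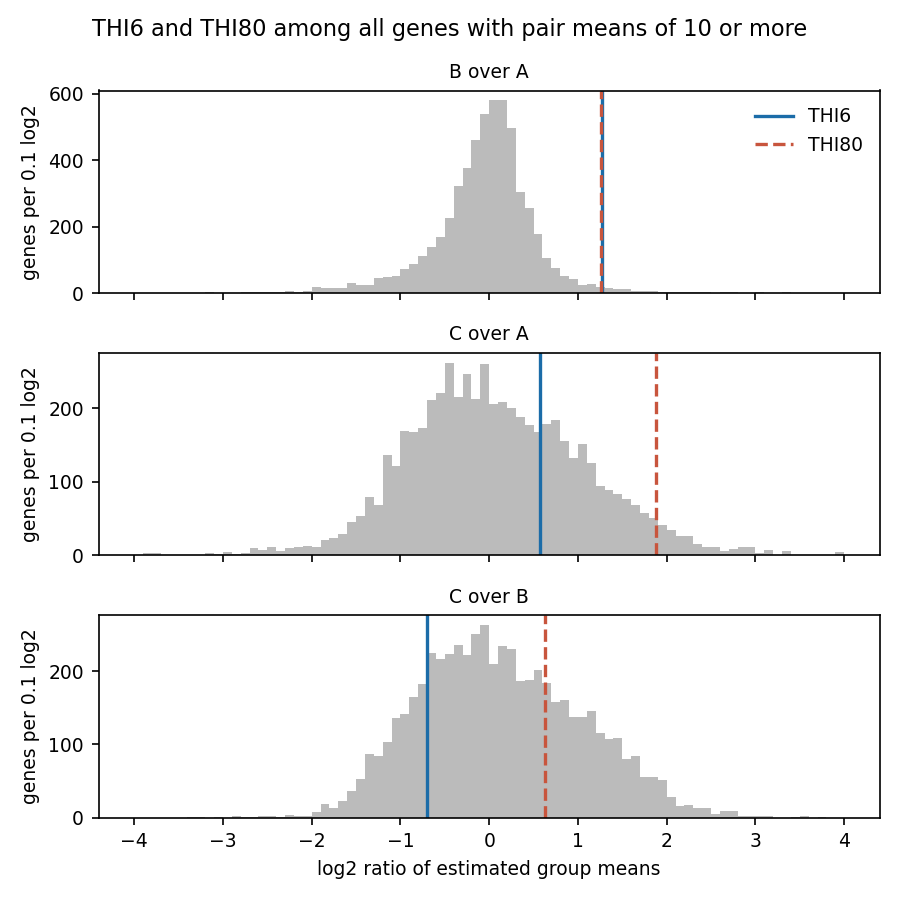
Number of genes per bin of 0.1 in the log2 ratio of estimated group means, over 5664 genes, for B over A, C over A and C over B. The x axis covers -4 to 4 and leaves out 1, 15 and 1 genes, vertical lines mark THI6 (solid) and THI80 (dashed), and the lines coincide near 1.27 and 1.25 in B over A but stand apart at 0.58 and 1.88 in C over A and at -0.70 and 0.63 in C over B.

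The contrast between the genes was also expressed as the difference of their log2 ratios. The log2 ratio of THI80 minus that of THI6 was -0.02 from A to B, 1.31 from A to C and 1.33 from B to C. The THI80 level relative to the THI6 level was thus 2.48-fold higher in group C than in group A, and it was 0.987-fold in B relative to A. Gene length and any other factor that is constant for a gene cancel in these differences. The value from A to B was fixed in part by the choice of both genes on that comparison. None of the 3 differences was set against replicate error, because the authors' standard errors were not used.

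To set the genes side by side, the levels were divided by the coding length. Per kilobase of coding sequence, THI6 had a level of 4953 normalized counts in group A, 11974 in group B and 7386 in group C. THI80 had 2260 normalized counts per kilobase in group A, 5389 in group B and 8341 in group C. Per kilobase, THI6 was 2.19-fold above THI80 in the control and 2.22-fold above it in group B. In group C the order was turned around, and THI80 was 1.13-fold above THI6. In the order of the 6 levels, THI6 in group A and THI80 in group B are the closest neighbours (4953 and 5389), followed by the 2 genes in group C. Whether any of these neighbours differ beyond the spread between libraries is not known. Coding length leaves out untranslated parts of the transcripts, which the annotation used does not give.

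**Figure D3:**
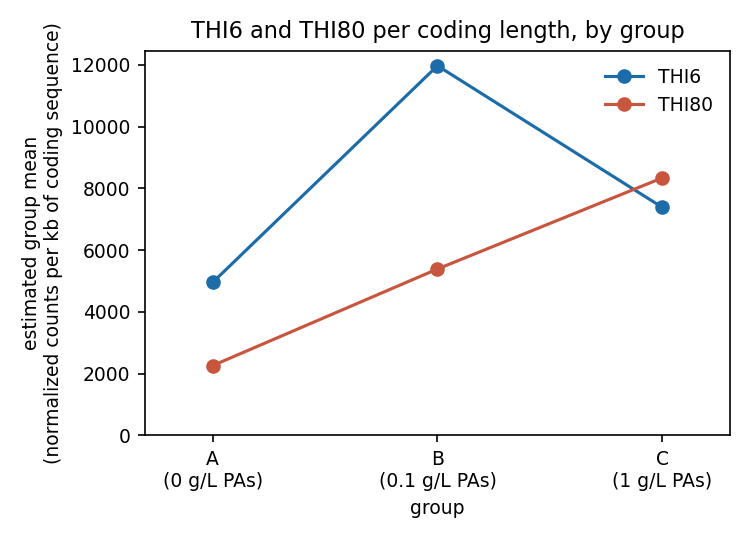
Estimated group means of THI6 and THI80 in normalized counts per kilobase of coding sequence, with groups A, B and C at equal steps on the x axis (not to scale with the dose) and no error bars, since replicate values were not used. THI6 peaks in group B at 11974, and THI80 goes from 2260 in group A to 8341 in group C, where it stands above THI6 at 7386.

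The choice of scale did not turn any of these directions around, except for the difference between the 2 genes from A to B, which was close to 0. With 6 alternatives, the log2 ratio of B to A lay between 1.10 and 1.33 for THI6 and between 0.92 and 1.34 for THI80. The ratio of C to A lay between 0.54 and 0.63 for THI6 and between 1.73 and 1.96 for THI80. Between the doses, C to B, the range was -0.70 to -0.54 for THI6 and 0.62 to 0.81 for THI80. With equal summed levels in the 3 groups, the THI80 ratio of B to A was 0.92, below the 2-fold threshold. Under that scale the median of all genes shifted to -0.24 for B over A and 0.30 for C over B. Relative to these medians the B over A ratio was 1.34 for THI6 and 1.16 for THI80. It also gave 93 genes higher and 609 lower in B than in A, against 158 and 322 under the median scale, and 1465 higher and 281 lower in C than in B, against 1068 and 586.

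**Figure D4:**
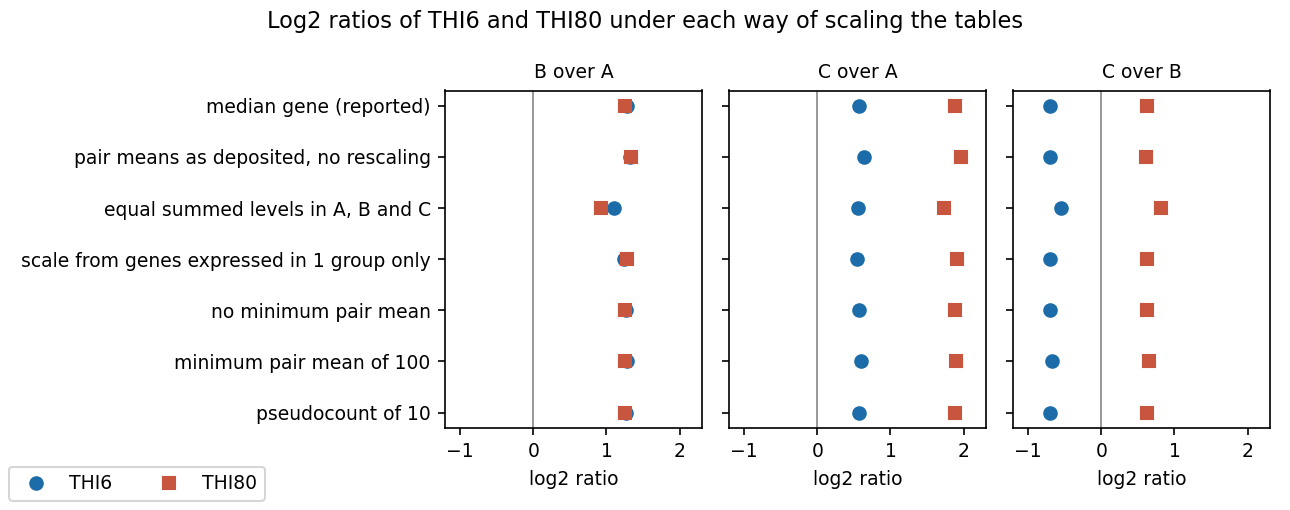
Log2 ratios of THI6 (circles) and THI80 (squares) for B over A, C over A and C over B, under the reported scale by the median gene and 6 alternatives (y axis). All B over A and C over A points are above 0, and in C over B all THI6 points are below 0 and all THI80 points above it.

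Of the 4 ratios to the control, that of C to A in THI6 is the smallest. It rests on the mean of B and C exceeding the mean of A and B by 15.7%. For THI80, the comparison of C with B rests on the mean of A and C exceeding that of A and B, and the comparison of B with A on the mean of B and C exceeding that of A and C by 31.4%. The scales of the tables could be checked on a few genes that are listed at 0 in 1 table and so have reads in 1 group only. Over the 4 genes with reads in group A only, the mean in the table of A and B divided by that in the table of A and C ranged from 0.974 to 1.02. Over the 4 genes with reads in group B only, the table of A and B divided by that of B and C gave ratios from 0.962 to 0.965. Over the 5 genes with reads in group C only, the table of A and C divided by that of B and C gave 0.996 to 1.01. These offsets between tables were smaller than the 15.7% behind the THI6 comparison. Taken with those from group A, the ratios from groups B and C pointed to different factors for the table of B and C. The reported levels use 1 factor per table and so cannot match all of these ratios. With a separate scale for each group in each table, the THI6 log2 ratio of C to A was 0.54, against 0.58 as reported. The offsets describe the scaling alone and not the spread between replicates.

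The gene with the profile most like each member was sought among 5381 other genes with pair means of at least 100, by the Euclidean distance in log2 B over A and log2 C over A, which both contain the control. For THI6 it was gene5283, at a distance of 0.05, with levels of 1651 normalized counts in group A, 3893 in group B and 2511 in group C. For THI80 it was gene2242, at a distance of 0.08, with 4469 normalized counts in group A, 10153 in group B and 16875 in group C. The files do not pair these numbers with gene names. Within a distance of 0.25 there were 18 genes around THI6 and 10 around THI80. The 2 members were 1.31 apart from each other, and 1477 genes were closer to THI6 than THI80 was, while 657 genes were closer to THI80 than THI6 was. Both members had been chosen on B over A, where their ratios were close. Their distance is therefore in effect their difference of 1.31 in C over A.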

How the data were processed

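Per the labels, the submitters trimmed the reads with Trimmomatic 0.30, aligned them with HISAT2 2.0.1, counted them with HTSeq 0.6.1 and compared groups with DESeq. According to the methods of the study, the reads were paired and aligned to the S288C genome from NCBI. The library kit is not a strand-marking one, and the use of strand in counting is not given in the sources used here. The authors deposited 3 tables, 1 per pair of groups, each normalized on its own. From each table the mean normalized count over 6 libraries was used, a signal that is never negative, and its sum over all genes was 22258441 for A and B, 20574438 for A and C and 22408192 for B and C. The other 5 columns hold the authors' own fold changes, standard errors, statistics and p-values and were not used. The depth of single libraries was not analysed here.

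Group means were solved from the pair means, with 2 table scales found so that the median log2 ratio over genes with all pair means of at least 10 was 0 for B over A and C over A. No replicate values were used, so no test was run, although tests on counts had been foreseen for tables with values per library. The 2 members were named as given, with the nearest profile of each. Lists of other thiamine genes and of enzymes that use thiamine pyrophosphate were set but not analysed, because the running numbers are not paired with names. The members and lists were chosen with earlier results of these data known. The steps were tested on simulated data in which fewer genes were changed than differed by 2-fold between C and A here. That test does not show how the scale behaves when many genes change. The alternatives were the pair means as deposited, equal summed levels, a scale from genes expressed in 1 group only, no minimum, a minimum of 100 and a pseudocount of 10. Loci and sequences are from RefSeq build R64. The software was Python 3.11.15 with scipy 1.17.1, numpy 2.4.6 and pandas 2.3.3, and plots were drawn with matplotlib 3.10.9.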

Additional observations from a re-analysis of the deposited data

How the results depend on the processing

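Under 6 alternatives to the scale, the minimum and the pseudocount, 97 of 108 recomputed values stayed within 0.1 on the log2 scale or, for counts of genes, within 1.5 times, and 11 moved further. Replicate spread was not used as the yardstick, so the tolerance of 0.1 was set instead. The share of 97 is not a measure of robustness. The changed minimum and the pseudocount could hardly move the values of THI6 and THI80. The levels of both genes lie far above these settings, and the minimum acts on them only through the table scales. All 11 values that moved further were among the 18 under the scale with equal summed levels in A, B and C. There the log2 ratio of B over A was 1.10 for THI6 and 0.92 for THI80, a difference of -0.18 between the genes. For C over A it was 1.73 for THI80, which was 1.18 above THI6, and for C over B it was -0.54 for THI6 and 0.81 for THI80. Per kilobase, the log2 level of THI80 over THI6 in group A was -1.03. The counts of genes were 93 higher (158 in the report) and 609 lower (322) in B than in A, and 281 lower (586) in C than in B. The difference between the genes from A to B was 0.04 with the scale from genes expressed in 1 group only and 0.01 with the pair means as deposited, the other sign from the reported -0.02. No paired analysis was possible because the tables hold means over 2 groups and no values per library, and for the same reason leaving out a replicate was not run. The precision of a level is limited by the unknown spread between libraries.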
